A study of Mus musculus with 4 samples.

Results

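The 9 genes described here serve pacemaking and the conduction system of the heart: the channel genes Hcn2 and Hcn4, the connexin genes Gja5 and Gjc1, the transcription factor genes Tbx3, Irx3, Irx4 and Irx5, and the adhesion molecule gene Cntn2. They were chosen by name, and all 9 names were found, each in a row of its own, among the 48432 gene rows of the authors' table. The table came from cardiomyocytes isolated from mouse hearts by Langendorff perfusion, which releases single cells by passing enzyme through the coronary vessels. The mice were of a C57BL x FVB strain background, and all of them had eaten a doxycycline diet for 3 days. The control group (genotype MHC, 2 libraries) is called MHC control below, and the other group (genotype RbFox2, 2 libraries, named Rbfox2_OE by its submitters) overexpressed RBFOX2, an RNA-binding protein that regulates alternative splicing. The promoter that drives the overexpression, the number of animals behind a library, their age and the chambers sampled are not given in the sources used here. By its title the series concerns heart conduction defects under overexpression of a non-muscle RBFOX2 isoform in myotonic dystrophy, so the question here is where the conduction genes stood in the overexpressing cells.

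The heartbeat starts in the sinoatrial node, passes the atrioventricular node with a delay and spreads through the His bundle, the bundle branches and the Purkinje fibres. Hyperpolarization-activated (HCN) channels open when the membrane repolarizes and carry an inward current that helps nodal cells to depolarize again, while connexins form the gap junctions that pass current from cell to cell. T-box and Iroquois transcription factors set which genes are used in nodal, fast-conducting and working myocardium. Working cardiomyocytes far outnumber conduction cells in the heart, so transcripts of conduction cells are diluted in a preparation of isolated cardiomyocytes.

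The values are FPKM, fragment numbers scaled to transcript length and to the sequencing depth, so levels of different genes can be compared. The authors pooled the libraries of a group into 1 value per gene, with a lower and an upper bound whose level is not stated. No spread between libraries was therefore available, no test between the groups was made and no p-value is given. A gene is called lower or higher below where the bounds of the groups were separate, and a 2-fold call is a difference of at least 1 in the log2 ratio of FPKM + 1, Rbfox2 OE over MHC control. The pseudocount of 1 FPKM shrinks the ratios of low genes, so plain ratios are given beside it. The number of fragments is not known, and no counting interval was given.

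Rbfox2 itself stood at 14.7 FPKM in MHC control and 293 FPKM with overexpression, in the direction of the labels. Genes with too much data to estimate (status HIDATA) numbered 30 in MHC control and 26 in Rbfox2 OE, and all 9 conduction genes had the status OK in both groups. Counts below rest on the 11697 genes whose average of both groups reached 1 FPKM. Cntn2 fell short of it, so 8 of the 9 genes entered the counts. Over all genes compared, the median log2 ratio was -0.06, and 1172 genes were at least 2-fold lower against 815 higher. This split turned with the scaling of the groups. It was 926 lower and 1058 higher after rescaling without mitochondrial genes and the 10 most abundant genes, which moved the median gene to 0.06, and 311 lower and 2902 higher after centring on 11 cardiomyocyte marker genes.

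Of the 8 genes compared, 1 (Hcn4) was at least 2-fold lower in Rbfox2 OE and 0 were at least 2-fold higher. Hcn4, at 2.44 FPKM in MHC control and 0.296 FPKM in Rbfox2 OE, passed the minimum mean only through its control level. It could thus enter this count and the count by separate bounds only because the groups differed. This limits the comparison of both counts with all genes. Among all 11697 genes compared, 1172 were at least 2-fold lower and 815 (6.97%) were higher. Both directions together made up 17.0% of all genes. The bounds were separate and lower for 2 of the 8 genes (Hcn2 and Hcn4), against 9.33% of all genes, and separate and higher for 0, against 6.67%. The median log2 ratio of the 8 genes was -0.10. Its sign turned with the scaling, to 0.03 after rescaling and 0.52 after centring on the cardiomyocyte markers. The median of all genes compared moved alike, from -0.06 to 0.06 and 0.55. The plot of FPKM by gene shows that the HCN channel genes and Cntn2 stand apart from the rest, whose bounds overlap between the groups. In a preparation of many cells, fewer cells of a type and less RNA per cell cannot be told apart, which holds for each value here.

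**Figure D1:**
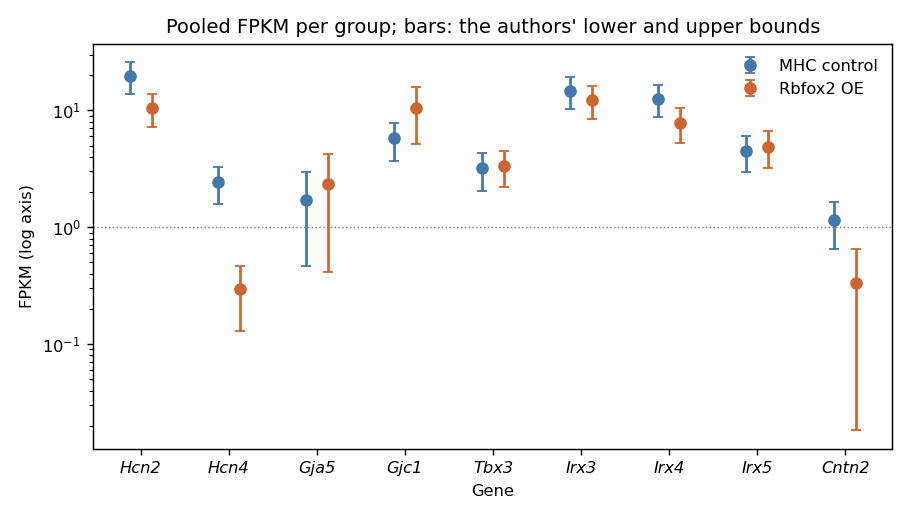
Pooled FPKM (log axis) of the 9 conduction genes in MHC control and Rbfox2 OE, with the authors' lower and upper bounds as bars and a dotted line at 1 FPKM. Hcn4 shows the widest separation, from 2.44 to 0.296 FPKM, while the bars of Gja5, Gjc1, Tbx3, Irx3, Irx4 and Irx5 overlap between the groups.

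Hcn2 encodes an HCN channel subunit found through much of the heart, and Hcn4 encodes the main subunit of the sinoatrial pacemaker current. Both were lower in Rbfox2 OE, Hcn4 under each scaling tried and Hcn2 only with the deposited scaling. The 250 bases upstream of their RefSeq start sites (GRCm38.p6, plus strand) are shown because these were the 2 genes in the counts that were called by separate bounds; the window of Cntn2 lies inside its annotated gene and is not shown. The RefSeq start of Hcn4 lies upstream of the start that GENCODE M21 gives below. Capitals mark GC boxes (GGGCGG) and T-box half-sites (AGGTGT), searched on both strands.
Hcn2 upstream, chr10:79716384-79716633: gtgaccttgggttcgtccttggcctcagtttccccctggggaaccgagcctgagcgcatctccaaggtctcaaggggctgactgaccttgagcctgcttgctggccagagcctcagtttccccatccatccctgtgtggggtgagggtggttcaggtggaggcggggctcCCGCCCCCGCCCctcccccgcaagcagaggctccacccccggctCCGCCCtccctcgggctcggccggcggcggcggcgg
Hcn4 upstream, chr9:58822699-58822948: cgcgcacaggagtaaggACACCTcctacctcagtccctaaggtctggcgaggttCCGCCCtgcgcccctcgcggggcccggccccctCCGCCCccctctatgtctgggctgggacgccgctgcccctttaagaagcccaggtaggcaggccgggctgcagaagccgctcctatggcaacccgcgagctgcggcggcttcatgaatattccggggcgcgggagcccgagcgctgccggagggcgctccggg
Both windows were rich in G and C, with 70.4% in Hcn2 and 71.2% in Hcn4, where the median window of 27025 genes had 52.0%. Of the windows not shown, that of Irx4 had 68.8%, Cntn2 61.2%, Gja5 56.4% and Irx3 56.0%. GC boxes also matched in the windows of Irx4 and Gja5, whose bounds overlapped between the groups, and not in those of Cntn2 and Irx3. The Hcn2 window held 3 GC boxes, at -80, -74 and -36 from the start site. The Hcn4 window held 2, at -196 and -163, and 1 T-box half-site at -233. A GC box was found in 32.9% of all windows and a T-box half-site in 12.0%, without overlap between them in these 2 windows. An NKX2-5 core (AAGTG), found in 40.8% of all windows, an Iroquois site (ACANNTGT, 6.29%), a GATA core (AGATAA, 10.3%) and a TATA box (TATAAA, 13.0%) did not match in either. The matches describe these letters only, and binding was not measured.

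Hcn4 (ENSMUSG00000032338, GRCm38 chromosome 9, 58823412 to 58863175, plus strand, protein-coding) measured 2.44 FPKM in MHC control cells, with bounds of 1.59 to 3.28, against 0.296 FPKM in overexpressing cells, with bounds of 0.129 to 0.464. The bounds were well apart. The control value was 8.22 times the Rbfox2 OE value, and the log2 ratio with the pseudocount was -1.41, with -1.92 and -0.82 from the farthest and the nearest bounds. Hcn4 passed the minimum mean only through its control level, so it could enter the counts only because the groups differed. Its bounds remained separate with each scaling, while its 2-fold call was lost on centring on the cardiomyocyte markers, where the log2 ratio was -0.79.

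Hcn2 (ENSMUSG00000020331, chromosome 10, 79716634 to 79736108, plus strand, protein-coding) measured 19.8 FPKM in MHC control cells, with bounds of 13.8 to 25.7, against 10.5 FPKM in overexpressing cells, with bounds of 7.23 to 13.8, a plain ratio of 0.531. The upper bound in Rbfox2 OE lay just below the lower bound of the control, and the log2 ratio was -0.85 with -0.0044 from the nearest bounds. The log2 ratio stayed below 0 under each scaling, at -0.72 after rescaling and -0.24 after centring on the cardiomyocyte markers, but the bounds then overlapped. They also overlapped after centring on the median gene. The gap between the groups was thus narrow for Hcn2 and wide for Hcn4.

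Hcn3 was close to 0, at 0.0231 FPKM in MHC control and 0.0134 FPKM with overexpression. Hcn2 made up most HCN transcript in both groups. Its share of the summed HCN FPKM was 88.9% in the control and 96.9% in Rbfox2 OE, while the share of Hcn4 was 10.9% and 2.74%. Hcn2 stood 8.12 times above Hcn4 in the control and 35.4 times above it in Rbfox2 OE. The summed HCN level was 22.3 FPKM in MHC control and 10.8 FPKM with overexpression.

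Neither connexin gene among the 9 was called with the deposited scaling. Gjc1 encodes a connexin of nodal tissue that is also made by vascular smooth muscle. It (ENSMUSG00000034520, chromosome 11, 102799579 to 102819700, minus strand, protein-coding) measured 5.76 FPKM in MHC control cells, with bounds of 3.68 to 7.83, against 10.4 FPKM in overexpressing cells, with bounds of 5.12 to 15.8. The bounds overlapped, at a plain ratio of 1.81 and a log2 ratio of 0.76. On centring on the cardiomyocyte markers the log2 ratio was 1.38 and the bounds were separate. This was the 1 call in the upward direction among the 9 genes under any scaling. Of all 11697 genes compared, 2231 were higher with separate bounds under that centring, and 2902 were at least 2-fold higher.

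Gja5 encodes the connexin of atrial muscle and the fast-conducting fibres, and arterial endothelium makes it too. Its value (ENSMUSG00000057123, chromosome 3, 96904693 to 97077416, plus strand, protein-coding) was 1.72 FPKM in MHC control cells, with bounds of 0.467 to 2.97, against 2.33 FPKM in overexpressing cells, with bounds of 0.410 to 4.24. The bounds reached 72.9% and 82.4% of the value above it, where the median over all genes compared was 38.4% and 39.3%, so the values of Gja5 are less precise than most. The annotated Gja5 gene overlaps 4 genes on the opposite strand, and with 1 of them, Gpr89, it shares exon positions. Gpr89 stood at 6.15 FPKM in MHC control and 2.67 FPKM with overexpression. Whether the authors' estimate used strand is not given in the sources used here, so fragments may have been split between them.

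Beside these members, Gja1, the main connexin of working ventricular muscle, made up 81.2% of the summed connexin FPKM in the control and 62.3% with overexpression. Gja1 was itself lower, at 100.3 FPKM (lower bound 71.9) against 49.9 FPKM (upper bound 64.5), and the summed connexin level was 124 FPKM against 80.0 FPKM. The level of Gja1 was 17.4 times that of Gjc1 in the control and 4.78 times in Rbfox2 OE. The share of Gjc1 was 4.66% in the control and 13.0% in Rbfox2 OE, and that of Gja5 was 1.39% and 2.91%. Gja4, a connexin of arterial endothelium, was higher, at 4.85 FPKM (bounds 3.12 to 6.59) against 11.5 FPKM (bounds 7.73 to 15.2). Gja3 was lower, at 8.75 FPKM (lower bound 5.83) against 3.58 FPKM (upper bound 4.95). From the nearest bounds the log2 ratio was -0.16 for Gja1 and -0.20 for Gja3. Both gaps were smaller than the shift of 0.62 made by centring on the cardiomyocyte markers. Neither of these 2 calls would therefore hold relative to those markers. Gjb1 overlapped between the groups at 1.20 and 0.970 FPKM. Gjd3, a connexin of the mouse atrioventricular node, stood at 0.0783 FPKM in MHC control and 0.0179 FPKM with overexpression.

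**Figure D2:**
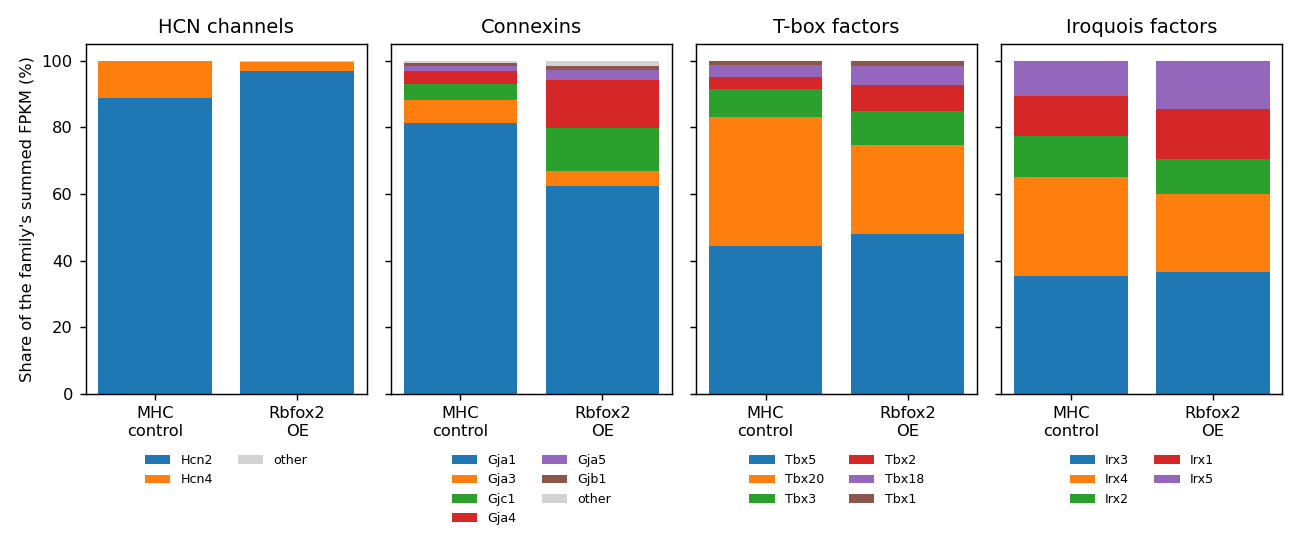
Share of each gene in the summed FPKM of its family (%), for HCN channels, connexins, T-box factors and Iroquois factors in MHC control and Rbfox2 OE, with genes under 1% in both groups drawn together as other. The Hcn4 share is 10.9% in the control and 2.74% in Rbfox2 OE, and the Gjc1 share is 4.66% and 13.0%.

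Tbx3 encodes a T-box repressor that holds the working-muscle programme down in nodal tissue. Its level (ENSMUSG00000018604, chromosome 5, 119670669 to 119684724, plus strand, protein-coding) was 3.19 FPKM in MHC control cells, with bounds of 2.05 to 4.32, against 3.34 FPKM in overexpressing cells, with bounds of 2.21 to 4.48. The bounds covered nearly the same range, with a log2 ratio of 0.05 and -0.73 to 0.84 from the bounds. Exons of Tbx3 share positions with the antisense gene Tbx3os1, which stood at 0.714 FPKM in MHC control and 1.23 FPKM with overexpression. Among the other T-box genes, Tbx5 (an activator of the conduction and atrial programme) stood at 16.8 and 15.7 FPKM, and Tbx20 (a factor of working muscle) at 14.7 and 8.83 FPKM. The lower-expressed Tbx2, a repressor of the atrioventricular canal, stood at 1.43 and 2.63 FPKM, and Tbx18, of the sinoatrial node and the epicardium, at 1.28 and 1.80 FPKM. Bounds overlapped for each of the 5 T-box genes compared.

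The Iroquois genes encode homeodomain factors with graded expression across the ventricular wall. Irx4 is a factor of ventricular identity, Irx3 is active in the ventricular conduction system, and Irx5 is known for setting the gradient of repolarizing potassium current in the mouse ventricle. Irx4 (ENSMUSG00000021604, chromosome 13, 73260479 to 73269608, plus strand, protein-coding) measured 12.5 FPKM in MHC control cells, with bounds of 8.69 to 16.4, against 7.84 FPKM in overexpressing cells, with bounds of 5.29 to 10.4. The bounds overlapped, at a plain ratio of 0.625 and a log2 ratio of -0.62. The log2 ratio of Irx4 was -0.48 after rescaling and 0.0017 after centring on the cardiomyocyte markers, so that relative to those markers Irx4 stood level.

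Irx3 (ENSMUSG00000031734, chromosome 8, 91798525 to 91802067, minus strand, protein-coding) measured 14.8 FPKM in MHC control cells, with bounds of 10.2 to 19.3, against 12.3 FPKM in overexpressing cells, with bounds of 8.45 to 16.1. Its log2 ratio was -0.25 and turned to 0.37 on centring on the cardiomyocyte markers. Exons of Irx3 share positions with the antisense gene Irx3os, which was low at 0.376 and 0.177 FPKM. Irx5 (ENSMUSG00000031737, chromosome 8, 92357625 to 92376286, plus strand, protein-coding) measured 4.49 FPKM in MHC control cells, with bounds of 2.96 to 6.02, against 4.90 FPKM in overexpressing cells, with bounds of 3.20 to 6.60, a log2 ratio of 0.10. For both genes the bounds overlapped over most of their range. Irx3 stood 3.29 times above Irx5 in the control and 2.50 times above it in Rbfox2 OE.

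The paralogues Irx1 and Irx2 also overlapped between the groups, Irx1 with a log2 ratio of -0.0047 and Irx2 at 5.12 and 3.45 FPKM, while Irx6 was near 0 at 0.00514 and 0.00434 FPKM. The summed Iroquois level was 41.9 FPKM in MHC control and 33.4 FPKM with overexpression. Irx3 and Irx4 led the family in both groups, with shares of 35.2% and 29.9% in the control and 36.7% and 23.4% in Rbfox2 OE.

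Cntn2 encodes a contactin, a cell adhesion molecule anchored in the membrane, best known from axons and used as a marker of Purkinje fibres. It (ENSMUSG00000053024, chromosome 1, 132509427 to 132543256, minus strand, protein-coding) measured 1.16 FPKM in MHC control cells, with bounds of 0.653 to 1.66, against 0.334 FPKM in overexpressing cells, with bounds of 0.0182 to 0.649. The bounds were apart by 0.0044 FPKM, with a control value 3.46 times the Rbfox2 OE value and a log2 ratio of -0.69 with the pseudocount. Its mean lay under the minimum, so it has no place in the counts, and its bounds overlapped once the groups were rescaled. The relatives Cntn1 and Cntn4 were near 0 in both groups, and Cntn5 stood at 0.336 and 0.0832 FPKM. Of the neuronal and glial markers, which bear on Cntn2 since nerve also makes it, 1 of 11 (Uchl1, at 7.99 and 10.4 FPKM) reached the minimum. It carried most of the list's summed level of 9.87 FPKM in MHC control and 13.6 FPKM with overexpression, and the other 10 lay below 1 FPKM in both groups.

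**Figure D3:**
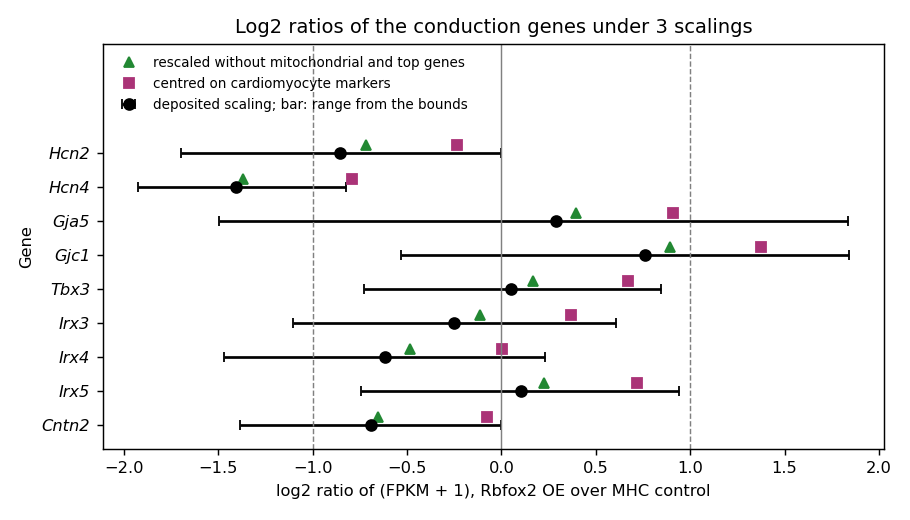
Log2 ratio of FPKM + 1 (Rbfox2 OE over MHC control) for the 9 genes with the deposited scaling (black, bars from the nearest and farthest bounds), after rescaling (green) and after centring on the cardiomyocyte markers (purple), with dashed lines at 2-fold. Hcn4 lies at -1.41 and stays below 0 in all 3 scalings, and Gjc1 lies at 0.76 and passes the upper line in the last.

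By level, the 9 genes ran in the control from Hcn2, Irx3 and Irx4 through Gjc1, Irx5 and Tbx3 to Hcn4, Gja5 and Cntn2. In 7 of the 8 neighbouring pairs of that order the bounds overlapped, and the exception was Irx4 over Gjc1. With overexpression the order was Irx3, Hcn2, Gjc1, Irx4, Irx5, Tbx3, Gja5, Cntn2 and Hcn4, and the bounds of all 8 neighbouring pairs overlapped. Hcn4 went from seventh in the control to last. The genes were of low to middle abundance among the genes compared: 5 of the 8 lay under the control median of 8.08 FPKM, and Hcn2, the most abundant, lay at percentile 72.4 there and at percentile 59.5 in Rbfox2 OE.

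**Figure D4:**
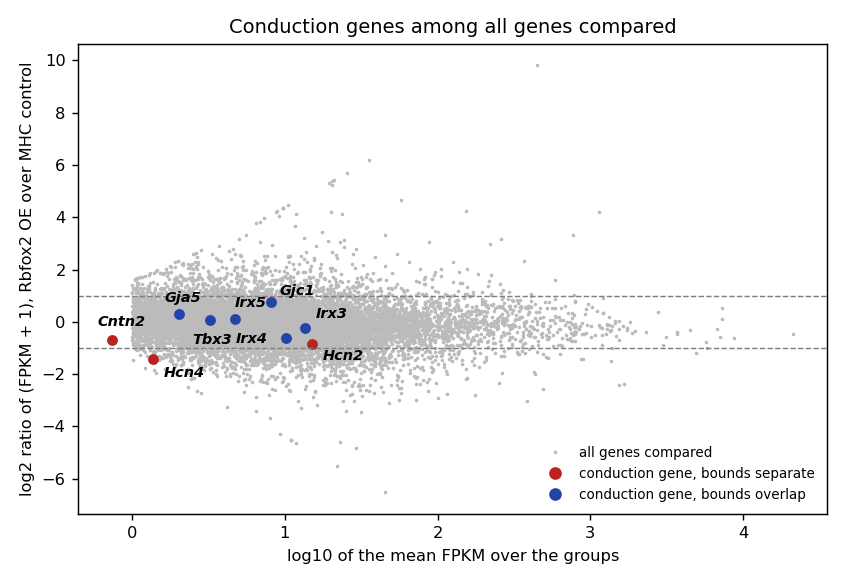
Log2 ratio of FPKM + 1 (Rbfox2 OE over MHC control) against the log10 mean FPKM for the 11697 genes compared (grey) and the 9 conduction genes (red where the bounds are separate, blue where they overlap), with dashed lines at 2-fold. Hcn4 lies below the lower line at low abundance, Hcn2 above it at middle abundance, and the other genes compared lie between the lines; Cntn2 lies left of the minimum mean.

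A further 79 genes of pacemaking and conduction were read from lists of HCN channels, connexins, T-box and Iroquois genes, other transcription factors, nodal and conduction channels, and channel partners and surface proteins. Of the 41 that reached the minimum mean, 12 were at least 2-fold lower and 2 at least 2-fold higher, and 13 had separate bounds and were lower against 2 higher. On centring on the cardiomyocyte markers the 2-fold counts became 6 lower and 6 higher, where 311 and 2902 of all 11697 genes compared were. The counts with separate bounds became 7 lower and 7 higher, where 350 and 2231 of all genes were. With the deposited scaling the median log2 ratio of the 41 genes was -0.43. By both criteria 11 were lower and 2 higher, where 7.42% and 5.27% of all genes were. The 38 below the minimum included the sinoatrial node factors Shox2 (0.104 and 0.316 FPKM) and Isl1 (0.0850 and 0.0598 FPKM), and 7 of them were listed at 0 in both groups.

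The list of channels and exchangers that serve nodal and conducting cells held most of the lower genes. In it, 6 of 11 were lower and 0 higher by both criteria, where 7.42% and 5.27% of all genes were. The list does not tell conduction cells from working cardiomyocytes. Slc8a1 and Ryr2, the sodium-calcium exchanger and the calcium release channel, had log2 ratios of -2.73 and -2.39. Ryr2 also belongs to the cardiomyocyte markers used for the centring. Kcnj3 and Kcnj5, which together form the channel that acetylcholine opens in nodal and atrial cells, had log2 ratios of -1.45 and -1.18, and Kcnn2, a calcium-activated potassium channel, one of -1.54. Kcnn2, at 3.69 and 0.613 FPKM, passed the minimum mean only through its control level, as Hcn4 did. Relative to the cardiomyocyte markers these differences would be smaller by 0.62 on the log2 scale, the size of the shift that centring made. From the nearest bounds the log2 ratios of Kcnj3 and Kcnj5 were -0.48 and -0.36. Both gaps were smaller than that shift, so these calls would not hold relative to the markers.

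Among channel partners and surface proteins 3 of 10 were lower and 0 higher by both criteria, where 7.42% and 5.27% of all genes were. They were Chrm2, the muscarinic receptor of the heart, at 25.8 FPKM against 5.14 FPKM, Adora1, the adenosine receptor that slows nodal conduction, at 7.46 against 1.52 FPKM, and Rgs6, a regulator of muscarinic signalling, at 11.1 against 4.41 FPKM. From the nearest bounds the log2 ratio of Rgs6 was -0.14. That gap was smaller than the shift of 0.62, so its call would not hold relative to the cardiomyocyte markers. Rgs4, another regulator of G-protein signalling in that list, overlapped between the groups at 3.55 and 6.10 FPKM. Popdc2 and Popdc3, membrane proteins of nodal function, overlapped at 266 and 315 FPKM and at 16.4 and 18.8 FPKM, as did Bves, of the same family, at 37.7 and 24.5 FPKM. Of the 10 other transcription factors compared, Hopx, a homeodomain protein without DNA binding, was lower at 178 FPKM against 22.8 FPKM. Prox1, a homeobox factor, had separate bounds without reaching 2-fold, at 11.6 FPKM (lower bound 8.10) against 5.76 FPKM (upper bound 7.60). Its log2 ratio from the nearest bounds was -0.08, a gap smaller than the 0.15 by which rescaling moved the groups. The bounds of Prox1 would thus overlap after rescaling. Id2, an inhibitor of helix-loop-helix factors used in the ventricular conduction system, was higher. It stood at 10.4 FPKM (bounds 6.92 to 13.9) against 24.6 FPKM (bounds 17.0 to 32.2). Nkx2-5, the cardiac homeodomain factor upstream of Id2 in the conduction lineage, overlapped at 49.8 and 61.4 FPKM.

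The cell content of the preparations bears on each of these genes, and its part in the results was not tested. Over all genes compared, 6.67% were higher and 9.33% lower by separate bounds, and 5.27% and 7.42% by both criteria. Of 12 cardiomyocyte markers, Myh6 was listed at 0 in both groups for want of an estimate, and the other 11 were abundant in both, with a summed level of 61563 FPKM in MHC control and 40191 FPKM with overexpression. Their log2 ratios had a median of -0.62 and ran from -2.39 (Ryr2) to 0.60 (Ttn), and 5 of 11 had separate bounds and were lower. The 11 atrial markers compared, of which Gja5 is 1, had a median of 1.87 and ran from -1.45 (Kcnj3) to 4.20 (Nppa), with 7 higher and 1 lower by both criteria and a summed level, over the 12 listed, of 322 FPKM in MHC control and 3237 FPKM with overexpression. The 5 ventricular markers, of which Irx4 is 1, had a median of -0.46 and ran from -2.30 (Mpped2) to -0.07 (Hey2), with 1 lower.

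Markers of vessel cells, which also make Gja5 and Gjc1, were set beside those genes. Counts in the lists that follow are by separate bounds, where 6.67% of all genes compared were higher and 9.33% lower. The 11 endothelial markers had a median log2 ratio of 0.83, from 0.03 (Kdr) to 1.30 (Emcn), with 4 higher by separate bounds and a summed level of 294 FPKM in MHC control and 518 FPKM with overexpression. The 10 arterial markers had a median of 0.56, from 0.0090 (Stmn2) to 1.40 (Sox17), with 4 higher and summed levels of 33.8 and 63.9 FPKM. The 10 smooth muscle and pericyte markers had a median of 0.73, from -1.79 (Abcc9) to 1.65 (Acta2), with 3 higher and 1 lower and summed levels of 208 and 349 FPKM. Gjc1, at 0.76, and Gja5, at 0.29, lay inside the range of each of these lists. The ranges run between the extreme genes of a list, and those of other lists cover the same values. Gja5 also lay inside the range of the cardiomyocyte markers (-2.39 to 0.60), and Gjc1 inside that of the atrial markers (-1.45 to 4.20). A place inside a range therefore does not tell which cells made the transcript, and this was not tested. Of 11 fibroblast markers 6 were higher by separate bounds, with a median of 1.03 (0.36 for Tcf21 to 2.13 for Col3a1) and summed levels of 488 and 967 FPKM. Of 10 macrophage and leukocyte markers 9 were higher, with a median of 1.62 (0.97 for Adgre1 to 2.33 for Itgam) and summed levels of 110 and 389 FPKM. Of 5 red blood cell markers 4 were higher, with a median of 2.28 (0.83 for Alas2 to 2.60 for Hba-a2) and summed levels of 56.6 and 295 FPKM. Some markers passed the minimum mean only through their Rbfox2 OE level, so they could enter the counts only because the groups differed. In FPKM these were Hba-a2 (0.634 against 8.87), Alas2 (0.470 against 1.61), Adgre1 (0.974 against 2.87) and Fcgr1 (0.406 against 3.35). The same held for the arterial marker Bmx (0.504 against 1.87) and the atrial marker Bmp10 (0.512 against 6.84).

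**Figure D5:**
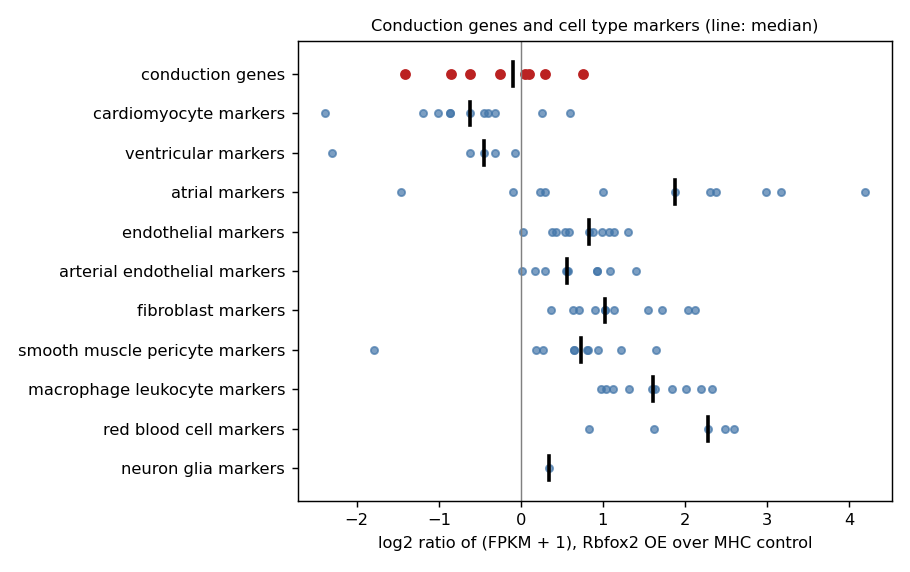
Log2 ratios of FPKM + 1 (Rbfox2 OE over MHC control) of the 8 conduction genes compared (red) and of the marker genes of 10 cell type lists (blue), with the median of each as a black line. The conduction genes span -1.41 to 0.76 around a median of -0.10, close to the median of -0.06 over all genes compared. The medians of the lists run from -0.62 (cardiomyocyte) to 2.28 (red blood cell).

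The nearest protein-coding genes on either side were read to place the members in their loci. Of the 16 neighbours that are not members, 11 reached the minimum, of which 4 were lower by both criteria and 0 higher, where 7.42% and 5.27% of all genes were. Neo1, 11.5 kb from Hcn4, stood at 17.9 FPKM in MHC control (bounds 12.8 to 23.1) against 4.31 FPKM (bounds 2.96 to 5.65), and Rec114 on the other side was near 0. The flanks of Hcn2 overlapped between the groups: Bsg, 4.67 kb away, stood at 1434 and 1476 FPKM, and Polrmt, whose annotation starts 0.015 kb past the end of Hcn2, at 11.8 and 7.68 FPKM. Fto, 130 kb from Irx3, stood at 32.2 and 7.19 FPKM, Acp6, 81.4 kb from Gja5, at 14.9 and 4.14 FPKM, and Adam11, 19.3 kb from Gjc1, at 6.32 and 1.76 FPKM. These 3 were lower beside members whose bounds overlapped. Tbx5, 148 kb from Tbx3, and Irx5, 556 kb from Irx3, are members of the same families and overlapped between the groups as their neighbours did. Cntn2 lies between Tmem81 and Nfasc, both under the minimum.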

How the data were processed

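Polyadenylated RNA of isolated cardiomyocytes was sequenced from 4 libraries, 2 per group, grouped by title. The deposited FPKM values and their bounds were made by the authors with Cuffdiff 2.2.1, per the submitters' processing notes, which name GRCm38 and, with no role given, STAR 2.4.2a and other tools. The annotation, normalization mode, level of the bounds and use of strand are not given in the sources used here, and the number of unused columns of per-sample values was 0. From these, log2 ratios with a pseudocount of 1 FPKM were computed (Python 3.11.15, pandas 2.3.3) and genes averaging 1 FPKM or more over the groups were compared; rows sharing a name (110 names) were summed. Coordinates are from GENCODE M21 on GRCm38, which held 99.3% of the gene names' identifiers. Upstream windows are from RefSeq (GRCm38.p6), which matched 6 of the 9 genes, 1 window per gene for the shares. The calculations were tested on simulated data. The members, gene lists and alternatives were chosen with earlier results of these data known. Named were the 9 genes, other conduction genes meeting both criteria, paralogues at the minimum mean, nearest protein-coding neighbours and the extremes of each marker list; other genes given with values were chosen after these were seen. Some genes that the rule chose are left unnamed and are not reported here.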

Additional observations from a re-analysis of the deposited data

How the results depend on the processing

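No paired analysis was possible because replicates were pooled in the deposited values, and for the same reason fits without each library were not run; the spread between libraries and the depth, which limits values near 0 such as Hcn4 and Cntn2 most, are unknown. The pseudocount of 0.1 FPKM gave -2.68 for Hcn4 and -1.53 for Cntn2, and that of 5 FPKM gave -0.49 for Hcn4, because a pseudocount acts most on low genes; Hcn4 was -0.79 on centring on the cardiomyocyte markers. The log2 ratios of Hcn2, Hcn4 and Cntn2 kept their sign in all 5 pseudocounts and scalings tried. Members at least 2-fold lower numbered 1 and became 0 with a pseudocount of 5 FPKM, with that centring, at 4-fold and with a minimum mean of 5 FPKM, and 3 at 1.5-fold (Hcn2, Hcn4 and Irx4). Members 2-fold higher numbered 0 and became 1 (Gjc1) at 1.5-fold and with that centring. Members lower with separate bounds numbered 2 and became 1 after rescaling, either centring, or asking for a wider gap between the bounds (Hcn4 in each), and 1 (Hcn2) with a minimum mean of 5 FPKM, which leaves out Hcn4; without a minimum Cntn2 joined as the third, making 3. Members higher with separate bounds numbered 0 and became 1 with centring on the markers. Of the other conduction genes, 12 were 2-fold lower, which became 6 with a pseudocount of 5 FPKM, 6 with centring on the markers, 19 at 1.5-fold and 5 at 4-fold; 2 were 2-fold higher, which became 0, 6, 4 and 0 in the same order. With separate bounds, 13 lower and 2 higher became 7 and 7 with that centring, and 0 were higher with the wider gap. Over all genes, 1172 lower and 815 higher at 2-fold became 559 and 304 with a pseudocount of 5 FPKM, 2582 and 1938 at 1.5-fold, 154 and 136 at 4-fold, and 492 higher with a minimum of 5 FPKM; with separate bounds, 1091 lower and 780 higher became 350 and 2231 with centring on the markers, 626 and 467 with the wider gap, and 446 higher with a minimum of 5 FPKM. Beyond the reasons given here, the cause was not tested.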
